A study of Mus musculus with 18 samples.

Results

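The 7 genes described here are 6 genes that glucocorticoids are known to induce (Fkbp5, Tsc22d3, Zbtb16, Klf9, Sgk1 and Ddit4) and Nr3c1, which encodes the glucocorticoid receptor. All 7 were found by symbol among the 19326 rows of an expression table of mouse spleen, each in 1 row. They were selected on measured values, being chosen with earlier results of these data known, among them the higher RPKM of several of the first 6 genes in STZ than in Con mice. Comparisons that rest on the Con or the STZ group are therefore given below as descriptions, with no test.

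Glucocorticoids such as corticosterone leave the adrenal cortex and enter cells, where they bind a receptor held ready by heat shock proteins. The bound receptor moves to the nucleus, where it switches on genes that carry its recognition element and restrains many inflammatory genes. In the spleen, steroid treatment is known for killing lymphocytes and for changing macrophages. Of the 7 genes, Fkbp5 encodes a co-chaperone that lowers the receptor's affinity for the hormone and so forms a feedback loop, and Tsc22d3 encodes GILZ, a leucine zipper protein that restrains inflammatory signalling. Zbtb16 and Klf9 encode zinc finger transcription factors, Sgk1 a kinase of ion transport and cell survival, and Ddit4 an inhibitor of the growth kinase mTOR.

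Poly(A) RNA of spleens from ICR mice, an outbred strain, was sequenced at 10 weeks of age, with 3 libraries in each of 6 groups. Con mice were controls that received saline. A10 mice were given AOS (alginate oligosaccharide, sugar chains cut from the alginate of seaweed) at 10 mg/kg. STZ mice received streptozotocin, a toxin of the insulin-producing cells, and STZ-A10 mice received streptozotocin together with AOS at 10 mg/kg. A10-FMT and Con-FMT mice received streptozotocin and a fecal microbiota transplant, which came from donors given AOS at 10 mg/kg or from control donors. All groups except Con and A10 thus carried streptozotocin. Mice were male, each transplant was small intestinal content pooled over donors, and it was given by mouth daily, whereas no sham dosing is described for the STZ mice, so the transplant and its handling cannot be told apart. How A10 and STZ-A10 mice received AOS is not given in the sources used here, nor is the hour at which spleens were taken, although corticosterone and several of these genes follow the time of day.

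Values were RPKM, that is, read numbers corrected for gene length and for how many reads a library mapped. In the spleen libraries, an RPKM of 1 corresponded to about 11.9 to 14.7 reads per kilobase, as estimated from the steps between low values. This estimate is rough. On a scale where 1 is a perfect fit, the steps fitted at 0.262 in Con replicate 3, which gave the 11.9. The best fit was 0.72, in Con-FMT replicate 1. Replicates correlated at r = 0.942 to 0.992 across genes. Hemoglobin genes took 10.4% to 42.7% of the summed RPKM, and A10-FMT replicate 3 had the highest share. B cell and red pulp macrophage markers, which define the spleen, were present in every library. Con replicate 1 stood apart through neutrophil markers, with a summed level of 14569.7 RPKM against 413 to 3967 in the other 17 libraries. A10-FMT replicate 3 stood apart through low T cell markers, which summed to 70.2 RPKM against 176 to 399 in the other libraries. Its B cell markers were low as well, at 513 RPKM against 1255 to 2383 in the other libraries. A bulk level does not tell fewer cells of a type from less RNA per cell.

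RefSeq (GRCm38.p6) gave 12 promoter windows for 5 of the 7 genes, each of 300 bases from 250 before a transcription start to 50 after it. These windows are shown because the receptor acts through a DNA element made of the half-sites AGAACA and TGTTCT, 3 bases apart, which reads the same on both strands. Both strands were also searched for the half-site TGTTCT alone and for the E-box CACGTG, a site of clock proteins. In the windows below, these motifs are in capitals and all other bases are in lower case, 5′ to 3′ on the strand of the gene. Sgk1 is shown for a complete element, Tsc22d3 for a half-site alone, Fkbp5 for an E-box with no half-site, and Klf9 for having neither.
Sgk1, chr10:21993640-21993939, plus strand: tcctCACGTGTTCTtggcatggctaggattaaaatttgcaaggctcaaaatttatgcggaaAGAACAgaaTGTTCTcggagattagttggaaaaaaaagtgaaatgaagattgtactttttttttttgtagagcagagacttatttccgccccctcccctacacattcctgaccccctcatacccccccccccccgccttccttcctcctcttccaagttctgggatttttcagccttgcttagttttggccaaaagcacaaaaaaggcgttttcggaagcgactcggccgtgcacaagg
Tsc22d3, chrX:140600473-140600772, minus strand: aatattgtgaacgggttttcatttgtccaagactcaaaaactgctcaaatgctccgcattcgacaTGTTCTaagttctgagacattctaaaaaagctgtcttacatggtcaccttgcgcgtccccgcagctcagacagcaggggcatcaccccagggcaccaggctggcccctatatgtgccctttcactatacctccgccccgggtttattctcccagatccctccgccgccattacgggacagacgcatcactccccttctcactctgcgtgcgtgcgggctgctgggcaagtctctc
Fkbp5, chr17:28486100-28486399, minus strand: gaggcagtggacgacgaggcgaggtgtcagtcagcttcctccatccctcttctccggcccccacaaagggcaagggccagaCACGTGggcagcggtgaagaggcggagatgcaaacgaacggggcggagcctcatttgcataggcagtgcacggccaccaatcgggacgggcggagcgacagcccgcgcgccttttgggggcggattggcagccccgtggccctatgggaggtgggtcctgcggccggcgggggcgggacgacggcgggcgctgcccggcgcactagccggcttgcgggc
Klf9, chr19:23140976-23141275, plus strand: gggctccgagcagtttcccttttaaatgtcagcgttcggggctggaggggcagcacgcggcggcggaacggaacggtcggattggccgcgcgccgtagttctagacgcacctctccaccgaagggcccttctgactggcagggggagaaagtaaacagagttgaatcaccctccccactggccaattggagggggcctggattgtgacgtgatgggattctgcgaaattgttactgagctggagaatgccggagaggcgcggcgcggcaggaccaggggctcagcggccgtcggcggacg

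The Sgk1 window held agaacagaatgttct, a match at 12 of 12 fixed positions, starting 189 bases before the transcription start at chr10:21993701-21993715. A match of this kind was present in 3 of 32851 windows over all genes (0.009%). The same window had a further half-site that overlapped an E-box near its upstream end. Of the 6 Sgk1 windows, 3 held a half-site, and across the members 4 of 12 windows did, against 18.974% of all windows. An E-box was present in 2 of the 12 windows, that of Fkbp5 and this one of Sgk1, against 7.15% of all windows. The single windows of Fkbp5, Klf9 and Ddit4 held no half-site, which says only that these letters are not within this stretch. A match is a description of the sequence and not a measured binding site. Zbtb16 and Nr3c1 have no window here.

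Fkbp5 (GENCODE M21 on GRCm38, chr17:28399094-28517527, minus strand), the co-chaperone gene, had 8.82, 9.93 and 9.56 RPKM in the Con libraries and 11.85, 10.64 and 11.57 RPKM in the A10 libraries. Its values were 23.73, 31.9 and 12.78 RPKM in STZ and 39.8, 18.25 and 24.76 RPKM in STZ-A10. With the transplants it had 9.02, 10.87 and 11.81 RPKM in A10-FMT and 10.43, 11.36 and 14.28 RPKM in Con-FMT. All 3 STZ-A10 libraries and 2 of the 3 STZ libraries lay above every library of the other groups, while STZ replicate 3 lay within the range of Con-FMT. The spread was uneven, with a coefficient of variation of 42.1% in STZ and 40.04% in STZ-A10 against 5.99% in Con and 5.58% in A10.

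Klf9 (chr19:23141226-23168134, plus strand), a zinc finger repressor that also damps cell proliferation, behaved much like Fkbp5. It had 3.6, 5.07 and 4.18 RPKM in Con and 3.55, 4.46 and 3.9 RPKM in A10. Levels were 8.67, 10.89 and 4.95 RPKM in STZ and 12.63, 7.59 and 8.76 RPKM in STZ-A10. They were 3.67, 3.72 and 3.45 RPKM in A10-FMT and 4.31, 3.38 and 4.36 RPKM in Con-FMT. The same 5 libraries of STZ and STZ-A10 stood above all others, and STZ replicate 3 lay below Con replicate 2. The A10-FMT libraries were the closest together, with a coefficient of variation of 3.98%.

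Zbtb16 (chr9:48654297-48836222, minus strand), which encodes PLZF, the factor that directs innate-like T cells, was at the edge of detection. Its level was 0.36, 0.38 and 0.51 RPKM in Con, 0.5, 0.57 and 0.42 RPKM in A10, and 0.81, 1.46 and 0.64 RPKM in STZ. It was 1.46, 0.71 and 1.88 RPKM in STZ-A10, 0.27, 0.38 and 0.21 RPKM in A10-FMT, and 0.45, 0.28 and 0.26 RPKM in Con-FMT. Every STZ and STZ-A10 library lay above every library of the other 4 groups. These levels correspond to about 2.92 to 23.7 reads per kilobase, by the rough estimate given above. Zbtb16 reached an RPKM of 1, the level set for testing, in exactly 3 libraries (STZ replicate 2 and STZ-A10 replicates 1 and 3), so it entered the test only through the groups in which it was high. The other 6 genes were above this level in all 18 libraries.

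Tsc22d3 (chrX:140539528-140600659, minus strand) was the most abundant of the 7 genes per kilobase. The GILZ gene had 43.14, 73.49 and 105.81 RPKM in Con and 69.75, 67.88 and 71.85 RPKM in A10. Values of 104.07, 103.43 and 88.57 RPKM were found in STZ, and 115.68, 97.57 and 94.93 RPKM in STZ-A10. A10-FMT had 59.75, 72.76 and 42.75 RPKM and Con-FMT had 80.6, 71.55 and 109.05 RPKM. The Con libraries alone spanned 43.14 to 105.81 RPKM, and Con replicate 3 and Con-FMT replicate 3 lay above all STZ libraries. The A10 and A10-FMT libraries lay below all STZ and STZ-A10 libraries.

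Sgk1 (chr10:21882184-21999903, plus strand), the gene with the complete element, had the smallest differences with streptozotocin among the 6 induced genes, given below. It had 12.51, 16.32 and 25.26 RPKM in Con, 20.75, 15.56 and 17.2 RPKM in A10, and 21.98, 21.35 and 16.52 RPKM in STZ. It had 26.79, 20.13 and 26.1 RPKM in STZ-A10, 14.19, 18.86 and 8.86 RPKM in A10-FMT, and 19.3, 17.32 and 19.31 RPKM in Con-FMT. Con and STZ overlapped, as did A10 and STZ-A10 through A10 replicate 1, whereas the STZ-A10 libraries lay above both transplant groups.

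Ddit4 (chr10:59949669-59951834, minus strand), also known as REDD1, had 16.46, 27.98 and 31.72 RPKM in Con and 35.29, 32.88 and 30.34 RPKM in A10. It had 53.33, 53.67 and 26.21 RPKM in STZ and 64.4, 50.53 and 52.13 RPKM in STZ-A10. The transplant groups had 27.2, 23.89 and 19.11 RPKM (A10-FMT) and 40.97, 33.69 and 49.72 RPKM (Con-FMT). The transplant groups were apart in Ddit4, as each Con-FMT library lay above each A10-FMT library. STZ replicate 3 again stood with the Con libraries.

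Nr3c1 itself did not share the pattern of the induced genes. The receptor gene had 22.28, 28.81 and 40.3 RPKM in Con, 26.61, 30.24 and 29.76 RPKM in A10, and 24.33, 22.63 and 29.3 RPKM in STZ. It had 25.39, 24.34 and 24.27 RPKM in STZ-A10, 22.03, 24.96 and 15.89 RPKM in A10-FMT, and 23.5, 25.86 and 28.57 RPKM in Con-FMT. Its mean was highest in Con (30.5 ± 9.12 RPKM, SD, n = 3) and lowest in A10-FMT (21.0 ± 4.63 RPKM), and all neighbouring groups in the order overlapped. The STZ-A10 libraries lay within 24.27 to 25.39 RPKM, below all 3 A10 libraries.

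**Figure D1:**
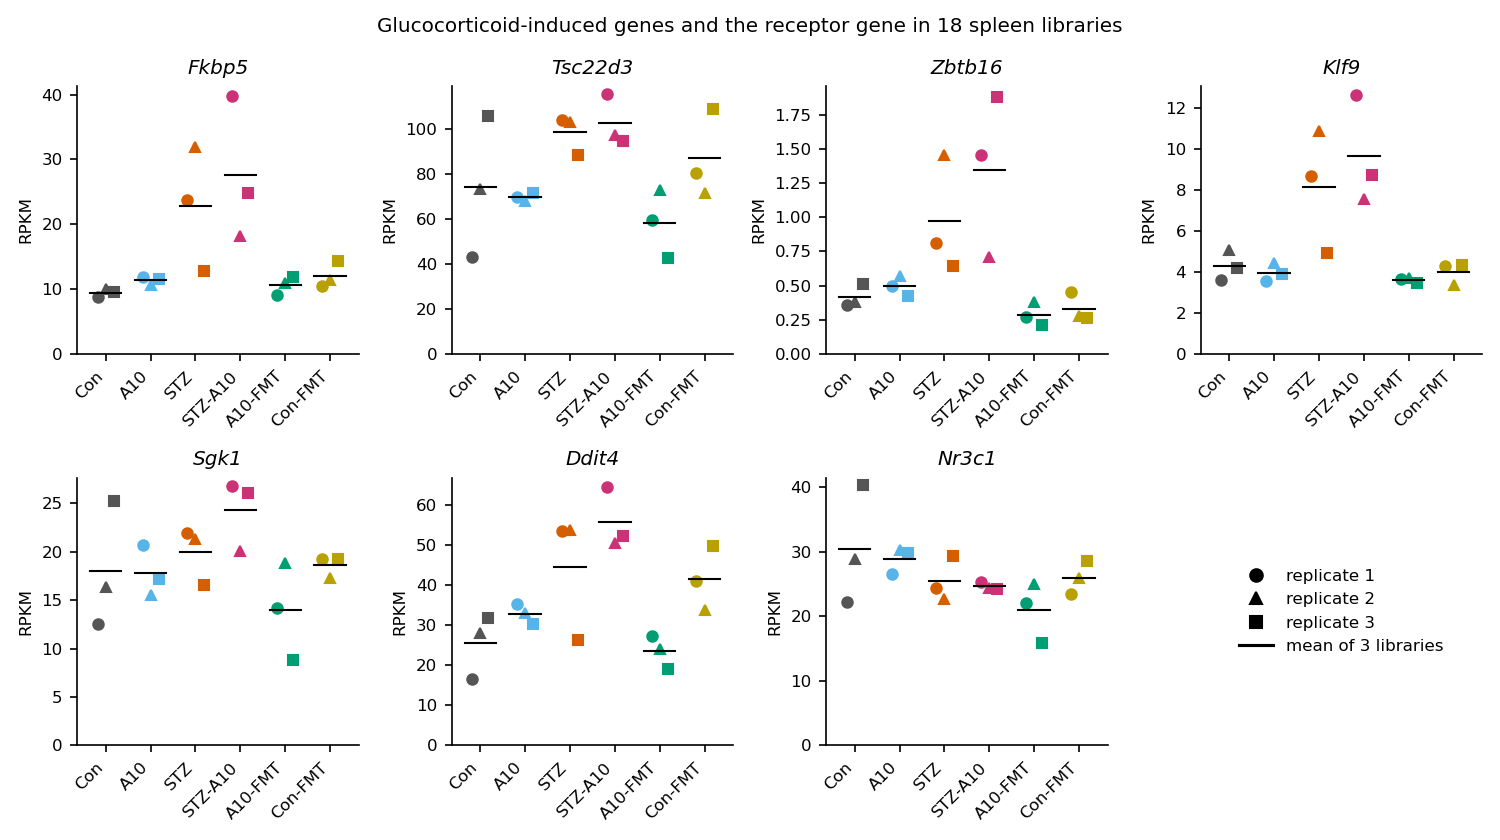
RPKM of the 7 genes (vertical axes, from 0, a scale for each gene) in the 6 groups (horizontal axes); each symbol is 1 library, with its shape giving the replicate number, and each line is the mean of 3 libraries. For Fkbp5, Klf9 and Zbtb16 the STZ and STZ-A10 libraries stand above the rest except STZ replicate 3 for Fkbp5 and Klf9, while Nr3c1 shows no such step.

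Ordered by mean level, STZ-A10 came first and STZ next for each of the 6 induced genes. The ranges of these 2 groups overlapped in all 6, and below them neighbouring groups also overlapped, except that Zbtb16 in STZ lay wholly above A10. A10-FMT had the lowest mean for 6 of the 7 genes, the exception being Fkbp5, which was lowest in Con.

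The comparison of STZ with Con asks what streptozotocin did to the spleen, and it was in view when the genes were chosen. Mean RPKM was 22.8 ± 9.59 (SD, n = 3) against 9.44 ± 0.565 for Fkbp5, a ratio of 2.42, and 8.17 ± 3.001 against 4.28 ± 0.740 for Klf9, a ratio of 1.91. On the log2(RPKM + 1) scale, used for all differences here and smaller than the true log2 ratio for low genes such as Zbtb16, the differences were 1.10 for Fkbp5, 0.76 for Ddit4, 0.75 for Klf9, 0.49 for Tsc22d3, 0.46 for Zbtb16, 0.18 for Sgk1 and -0.22 for Nr3c1. Their median was 0.49, beside -0.01 over all 12905 genes tested. All 3 STZ libraries exceeded all 3 Con libraries in 2 of the 7 genes, Fkbp5 and Zbtb16, beside 5.77% of all genes tested, among which Zbtb16 stands only through libraries of STZ and STZ-A10. STZ replicate 3 was the lowest of its group in 6 genes and the highest in Nr3c1, and without it 4 genes were apart. The count was also 4 without Con replicate 3. With a library left out, ranges can only narrow, so for genes past the filter such counts can only stay or rise. The share of all genes apart was not computed for these counts, here or below. Con replicate 1 was the lowest of its group in all 7 genes, and without it the difference of Ddit4 was 0.49, that of Tsc22d3 was 0.16 and that of Sgk1 turned to -0.036.

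The same contrast of streptozotocin can be read in mice that received AOS, in libraries that are no part of STZ against Con. Whether the earlier results known at the choice of genes also drew on these libraries is not known here. In STZ-A10 against A10, 4 of the 6 genes above an RPKM of 1 throughout were higher in every library, Fkbp5, Klf9, Ddit4 and Tsc22d3, beside 7.69% of all genes tested, and 1 gene (Nr3c1) was lower in every library, beside 14.9%. Zbtb16 was also higher in every library and is not counted here, since STZ-A10 libraries brought it past the filter. Fkbp5 averaged 27.6 ± 11.1 RPKM (SD, n = 3) in STZ-A10 and 11.4 ± 0.633 in A10, a ratio of 2.43, and Klf9 9.66 ± 2.64 and 3.97 ± 0.459, also a ratio of 2.43. The STZ-A10 libraries stood above the A10 libraries in both, with the wider spread in STZ-A10. None of the 7 genes passed the limma test after adjustment over all 12905 genes, in which 4 genes rose (0.031%) and 3 fell. At an unadjusted p under 0.05 stood 1317 genes and 4 of the 6.

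In this test the log2 difference of Klf9 was 1.08 (SE 0.215, 95% interval 0.62 to 1.53, limma adjusted p = 0.0744) and it ranked 24 among all genes by p. That of Fkbp5 was 1.14 (SE 0.272, 95% interval 0.56 to 1.72, limma adjusted p = 0.103). Both intervals, which are not adjusted for the number of genes, lay above 0. Zbtb16 differed by 0.62, Ddit4 by 0.74 (limma adjusted p = 0.3), Tsc22d3 by 0.55 (0.481) and Sgk1 by 0.43 (0.604). Nr3c1 differed by -0.22 with an interval of -0.61 to 0.17 (limma adjusted p = 0.773), an interval that holds both signs. Klf9 passed the threshold when libraries were quantile normalized (adjusted p = 0.0464) or centred on their medians (0.0421).

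AOS was compared with no AOS in mice without and with streptozotocin. Against Con, 1 of the 7 genes, Fkbp5, was higher in every A10 library, by 0.24, beside 11.7% of all genes tested, and the median difference of the members was 0.03, beside 0.05 over all genes. Ddit4 was also higher in every library without A10 replicate 3, Ddit4 and Zbtb16 were without Con replicate 3, and Tsc22d3 was lower in every library without Con replicate 1. Against STZ, the STZ-A10 libraries were apart in 0 of the 7 genes, beside 3.29% of all genes that were higher in every library. Differences there ran from -0.03 for Nr3c1 to 0.38 for Ddit4, and 1 gene, Sgk1, was apart without STZ-A10 replicate 2. The sign of Fkbp5 (0.28) and of Klf9 (0.25) was not stable, as these became -0.55 and -0.32 with array weights and -0.066 and -0.037 without STZ replicate 3, and Fkbp5 was -0.0073 without STZ-A10 replicate 1. These comparisons share the Con or the STZ libraries with those above.

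Both transplants addressed whether gut microbiota alter the state of streptozotocin-treated mice. Against STZ, A10-FMT was lower in every library for 4 of the 7 genes, beside 12.1% of all genes tested, with Zbtb16 again among the latter only through STZ and STZ-A10 libraries. These were Fkbp5 (-0.96), Klf9 (-0.93), Tsc22d3 (-0.78) and Zbtb16 (-0.59), while Ddit4 (-0.84) and Sgk1 (-0.53) overlapped. The median of all genes was itself -0.15 in this comparison, and relative to it Fkbp5 stood at -0.81 and Klf9 at -0.79. Con-FMT was lower than STZ in every library for 2 of the 7 genes, Klf9 (-0.82) and Zbtb16 (-0.55), beside 6.22% of all genes. Fkbp5 differed by -0.79 there and overlapped through STZ replicate 3, while Ddit4 differed by -0.04, Sgk1 by -0.08 and Tsc22d3 by -0.20. Without STZ replicate 3, 6 genes were apart in A10-FMT and 5 in Con-FMT, with no share of all genes computed beside these counts. The count was also 6 for A10-FMT without A10-FMT replicate 2, and 4 for Con-FMT without Con-FMT replicate 3.

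The source of the transplant was tested directly in A10-FMT against Con-FMT. Ddit4 averaged 23.4 ± 4.07 RPKM (SD, n = 3) in A10-FMT and 41.5 ± 8.03 in Con-FMT, a ratio of 0.564, and was the 1 member lower in every library, beside 23.9% of all genes tested. The count was 4 without A10-FMT replicate 2 or Con-FMT replicate 2, and 2 without Con-FMT replicate 1. No share of all genes was computed beside these counts. The log2 difference of Ddit4 was -0.80 (SE 0.263, limma adjusted p = 0.204), or -0.63 relative to the median of all genes, which was -0.17. Tsc22d3 differed by -0.58 (limma adjusted p = 0.207), Sgk1 by -0.45 (0.245) and Nr3c1 by -0.32 (0.265). Fkbp5, Klf9 and Zbtb16 were nearly level, at -0.17, -0.12 and -0.05, and each of these signs turned when libraries were centred on their medians. The 95% interval of Fkbp5, -0.75 to 0.41, leaves room for a difference in either direction. In the limma test 0 of the 7 genes and 0 of all genes passed (0%), with 3040 genes and 2 of the 7 at an unadjusted p under 0.05. Without A10-FMT replicate 2, 2625 genes passed and still 0 of the 7, with Ddit4 at -0.82 (limma adjusted p = 0.0623) and Tsc22d3 at -0.75 (limma adjusted p = 0.06).

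A10-FMT and STZ-A10 were the pair in which members passed the test. These mice share streptozotocin and AOS at 10 mg/kg in the labels, AOS having gone to the donors in the first and to the mice themselves in the second. Klf9 averaged 3.61 ± 0.144 RPKM (SD, n = 3) in A10-FMT and 9.66 ± 2.64 in STZ-A10, Fkbp5 10.6 ± 1.42 and 27.6 ± 11.1, Ddit4 23.4 ± 4.07 and 55.7 ± 7.59, and Zbtb16 0.287 ± 0.0862 and 1.35 ± 0.593. Klf9, Fkbp5 and Ddit4 fell in the limma test, 3 of the 6 genes above an RPKM of 1 throughout, beside 4.57% of all genes. Of these 6 genes, 5 were lower in every library, beside 23.2%. Zbtb16, which passed the filter through 2 STZ-A10 libraries and 1 of STZ, is set apart from these counts.

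The log2 difference was -1.18 for Klf9 (SE 0.215, limma adjusted p = 0.0287), -1.24 for Fkbp5 (SE 0.272, limma adjusted p = 0.0346), -1.22 for Ddit4 (SE 0.263, limma adjusted p = 0.0346) and -0.84 for Zbtb16 (SE 0.178), whose adjusted p was 0.0405 in the limma fit with no filter on low values. Relative to the median of all genes, which was -0.20, these became -0.98, -1.05, -1.02 and -0.64. Sgk1 at -0.81 (limma adjusted p = 0.0554) and Tsc22d3 at -0.83 (0.0563) did not pass, nor did Nr3c1 at -0.25 (0.31). The calls rested on the spread shared over all 18 libraries and on single libraries. With only the 6 compared libraries fitted, 0 genes passed of the 6 other than Zbtb16, and likewise 0 without STZ-A10 replicate 1, STZ-A10 replicate 3, A10-FMT replicate 1 or A10-FMT replicate 3. Zbtb16 was below the filter in the first 3 of these fits and did not pass in the other 2. The 770 calls over all genes became 3 with only the compared libraries fitted and 0 without any 1 of these 4 libraries. The differences of the 6 genes stayed negative in these fits, with Klf9 between -1.32 and -0.99 when libraries were left out.

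**Figure D2:**
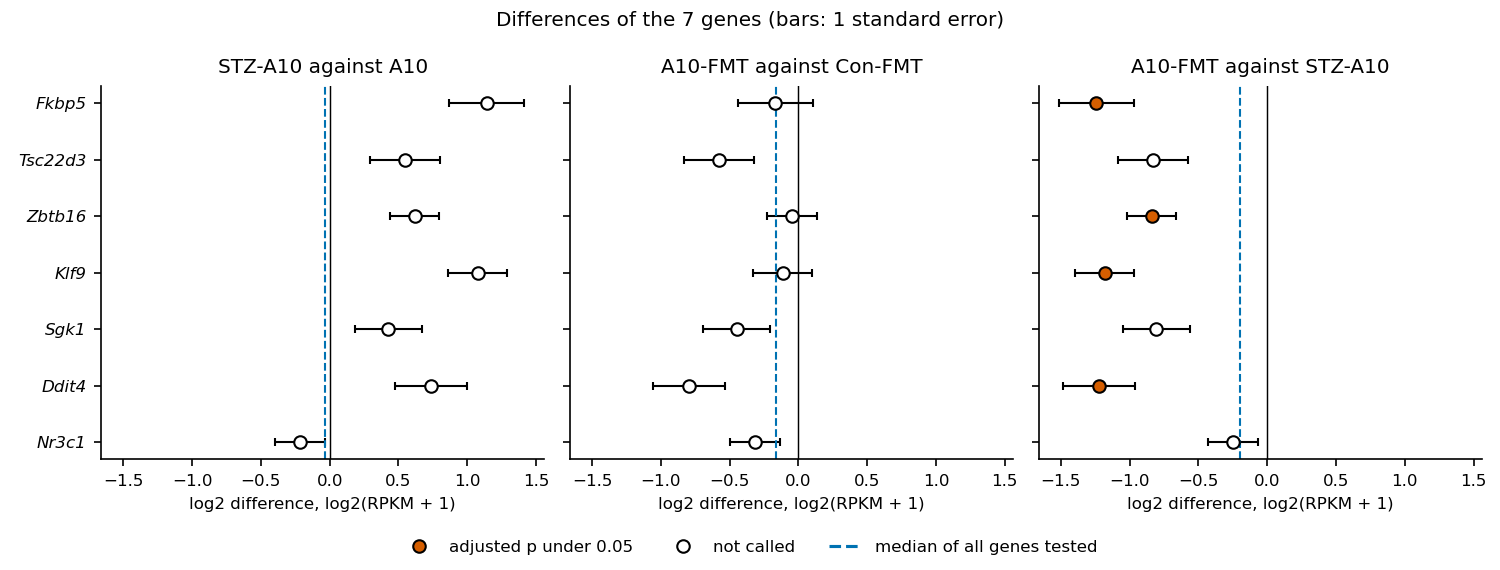
Log2 difference of the 7 genes on the log2(RPKM + 1) scale (horizontal axes) in the 3 tested comparisons; points are limma estimates from 3 against 3 libraries, bars are 1 standard error, filled points have an adjusted p under 0.05 and the dashed line is the median of all 12905 genes tested. In A10-FMT against STZ-A10 the filled points are Fkbp5, Klf9 and Ddit4, along with Zbtb16, which entered the test through STZ and STZ-A10 libraries, and no point is filled in the other 2 comparisons.

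Within groups, the members did not vary independently. Fkbp5 and Klf9 had r = 0.859 after group means were removed (Pearson, 18 libraries, log2(RPKM + 1)), and the 3 pairs among Fkbp5, Klf9 and Zbtb16 had 0.58 to 0.859. The 3 pairs among Tsc22d3, Sgk1 and Ddit4 had 0.698 to 0.843. Across these sets the values were lower for Tsc22d3 with Fkbp5 (0.292) and with Zbtb16 (0.225) and higher for Ddit4 with Klf9 (0.778). Nr3c1 went with Tsc22d3 (0.814) and Sgk1 (0.67), but not with Fkbp5 (-0.17) or Klf9 (-0.07). With group means kept, its r was 0.506 with Tsc22d3 and 0.532 with Sgk1 (Spearman 0.276 and 0.152), and it dropped to 0.12 and 0.075 without the 2 libraries farthest from the median of Tsc22d3 or Sgk1, so these relations rest on those libraries. Libraries share their RNA composition and depth across genes, the groups form separate clusters, and no p is given for these 21 pairs.

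**Figure D3:**
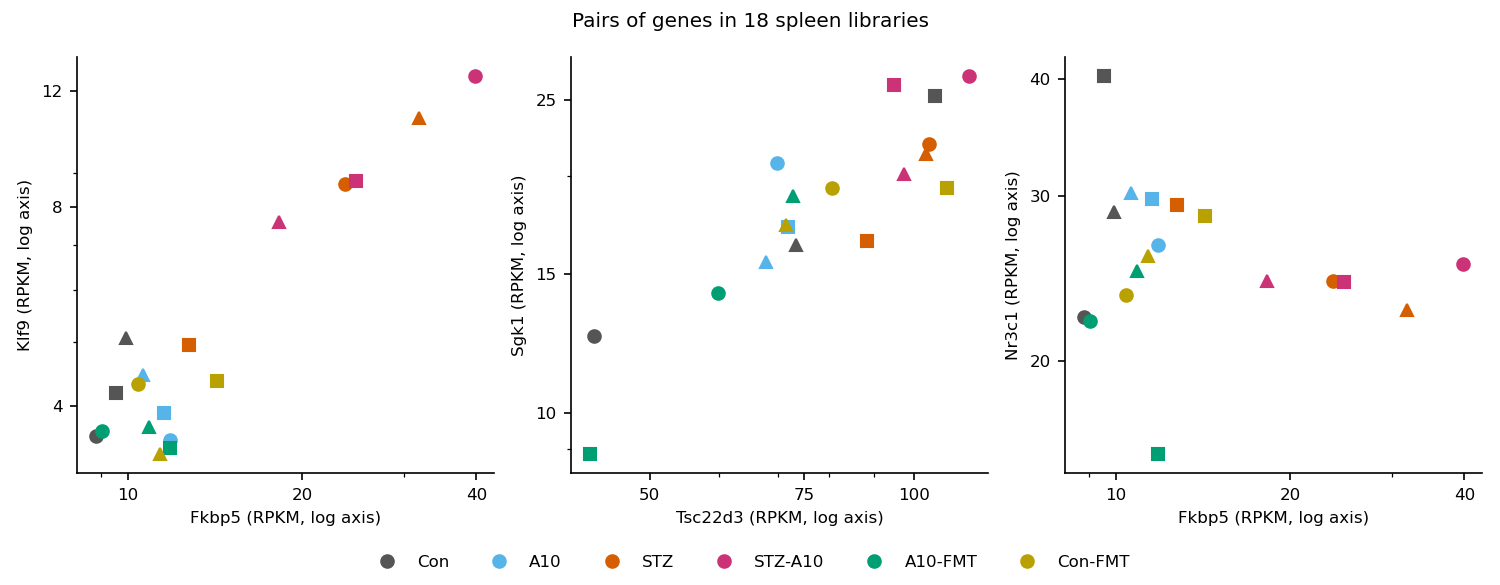
RPKM of Klf9 against Fkbp5, of Sgk1 against Tsc22d3 and of Nr3c1 against Fkbp5 (both axes of each panel logarithmic) in the 18 libraries, colored by group, with circles, triangles and squares for replicates 1, 2 and 3. Klf9 climbs with Fkbp5 to 12.63 and 39.8 RPKM in STZ-A10 replicate 1, whereas Nr3c1 stays between 22.63 and 25.39 RPKM in the 5 libraries with Fkbp5 above 18 RPKM.

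Among all genes tested, the profile over 18 libraries most like that of Klf9 was H6pd (Pearson r = 0.976, within groups 0.891), whose enzyme makes NADPH in the endoplasmic reticulum, and that most like Fkbp5 was Pdgfra (0.966, within groups 0.913), a growth factor receptor of stromal cells. Pdgfra was also among the 3 nearest genes of Klf9 (0.959). Tsc22d3 was closest to Zfp36l2 (0.936), an RNA-binding protein, and to Txnip (0.933), an inhibitor of thioredoxin and of glucose uptake. Zbtb16 was closest to Glul (0.909), glutamine synthetase, Sgk1 to Bmf (0.939), a death-promoting member of the Bcl2 family, Ddit4 to Tbc1d9 (0.926), and Nr3c1 to Dusp11 (0.969), an RNA phosphatase. These values describe likeness over libraries that fall into groups, and no p is given.

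A list of 38 other genes that glucocorticoids induce was set beside the members, of which 37 could be tested. This list holds metabolic genes (Pdk4, Pck1, Tat, Angptl4), metallothioneins (Mt1, Mt2), anti-inflammatory genes (Dusp1, Nfkbia, Tnfaip3, Zfp36, Anxa1) and death and growth genes (Bcl2l11, Foxo3, Cdkn1a). Of the 37, 27 had higher and 10 lower means in STZ than in Con, with a median of 0.40 beside -0.01. In every library, 14 were higher and 2 (Tat and Bcl6) lower, beside 5.77% and 7.07% of all genes. Fam107a and Hif3a are among the 14, but neither reached an RPKM of 1 in any Con or A10 library. Both thus passed the filter through groups in which they were high, and 27 of the 37 were at this level in every library. The largest differences apart were those of Errfi1, an inhibitor of the EGF receptor (36.2 ± 22.4 against 8.68 ± 3.62 RPKM, SD, n = 3), Mt2 (250.1 ± 63.3 against 80.6 ± 23.2) and Pdk4, a brake on glucose oxidation (9.39 ± 4.93 against 2.41 ± 0.620). Errfi1 in STZ was 19.66, 27.19 and 61.7 RPKM, so replicate 3, which was lowest for the members, was highest here.

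In STZ-A10 against A10, 29 of the 37 genes had higher means, with a median of 0.43 beside -0.03. In every library, 19 were higher, beside 7.69% of all genes, and 2 (Pck1 and Bcl6) were lower, beside 14.9%. Among the 19 were Fam107a, Hif3a and Rasd1, none of which reached an RPKM of 1 in any A10 library. STZ-A10 libraries helped to bring these past the filter. One gene rose. Pdk4 had 14.71, 12.13 and 15.3 RPKM in STZ-A10 and 2.67, 2.97 and 2.86 RPKM in A10, and its log2 difference was 1.97 (SE 0.312, limma adjusted p = 0.0322). Its 2 groups lay far apart with little spread in either. The call was lost without any 1 of the 6 libraries (limma adjusted p = 0.0713 to 0.195) and held, at 0.00312, with only these 6 fitted. In that fit 6 genes of the list rather than 1 were called, beside 66 of 12467 genes rather than 7 of 12905. Errfi1 differed by 1.52 (limma adjusted p = 0.119) and Klf15, a transcription factor of amino acid use, by 1.41 (0.0927). AOS against Con gave 17 genes with higher and 20 with lower means, 2 apart each way (Bcl2l11 and Fam107a higher, beside 11.7% of all genes, Foxo3 and Arrdc3 lower, beside 4.81%), and STZ-A10 against STZ gave 24 and 13, with Mt2 lower (-0.73) in every library, beside 4.71% of all genes, and Rasd1 and Fbxo32 higher, beside 3.29%.

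The transplant groups, which carry streptozotocin as well, were set against STZ and STZ-A10. Against STZ, 28 of the 37 genes had lower means in A10-FMT, 13 of them in every library, beside 12.1% of all genes, with a median of -0.44 beside -0.15. In Con-FMT 27 had lower means, 14 of them in every library, beside 6.22%, with a median of -0.31 beside 0.0016. Fam107a is counted among both the 13 and the 14, and Hif3a among the 14. Errfi1 stood at -1.72 in A10-FMT and -1.66 in Con-FMT, with no test of either. Against STZ-A10, 28 were lower in A10-FMT and 9 higher, with a median of -0.44 beside -0.20 over all genes. In this test 11 genes fell, namely Pdk4, Errfi1, Txnip, Klf15, Fam107a, Per1, Mertk, Fbxo32, Tnfaip3, Sesn1 and Bcl2l11, beside 4.57% of all genes, and 1 rose, beside 1.39%. Fam107a reached an RPKM of 1 in 7 libraries, all of STZ, STZ-A10 and Con-FMT, so it too passed the filter through groups in which it was high. Pdk4 fell by 2.28 to 2.14 ± 0.618 RPKM (limma adjusted p = 0.0287), and Per1, a clock gene with a known receptor element, fell by 1.02 from 16.6 ± 2.56 to 7.64 ± 0.216 RPKM (limma adjusted p = 0.0287). Mertk, a receptor with which macrophages engulf dying cells, fell by 0.88 to 5.45 ± 0.820 RPKM (limma adjusted p = 0.0346). The 12 calls became 0 without STZ-A10 replicate 1, STZ-A10 replicate 3, A10-FMT replicate 1 or A10-FMT replicate 3. They became 7 without STZ-A10 replicate 2, beside 155 of 12884 genes, and 20 without A10-FMT replicate 2, beside 4873 of 12891 genes. With only the compared libraries fitted, Pdk4 alone of the list was called (limma adjusted p = 0.0268), beside 3 of 12369 genes.

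The gene that rose was Tat, a liver enzyme, at 1.19, 1.02 and 4.44 RPKM in A10-FMT and 0.09, 0 and 0.15 RPKM in STZ-A10 (limma adjusted p = 0.0392). It passed the filter through 5 libraries, all of Con and A10-FMT. Liver markers moved with it, since 7 of 7 were higher and summed to 94.9 to 321 RPKM in A10-FMT against 2 to 13.01 RPKM in STZ-A10, and their part in the value of Tat was not tested. Between A10-FMT and Con-FMT, 18 genes had higher and 19 lower means, and 0 were called. Without A10-FMT replicate 2, 9 were called, beside 2625 of 12891 genes. The metallothioneins had higher means in A10-FMT (Mt2 by 1.13, limma adjusted p = 0.204, and Mt1 by 0.72, limma adjusted p = 0.204). Mt2 was 150.51, 123.23 and 366.77 RPKM in A10-FMT, above its 78.6 to 102 RPKM in Con-FMT. The metallothioneins thus did not follow Fkbp5 and Klf9, which were low in both transplant groups. Il7r, the interleukin-7 receptor, differed by -0.77 (limma adjusted p = 0.206).

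**Figure D4:**
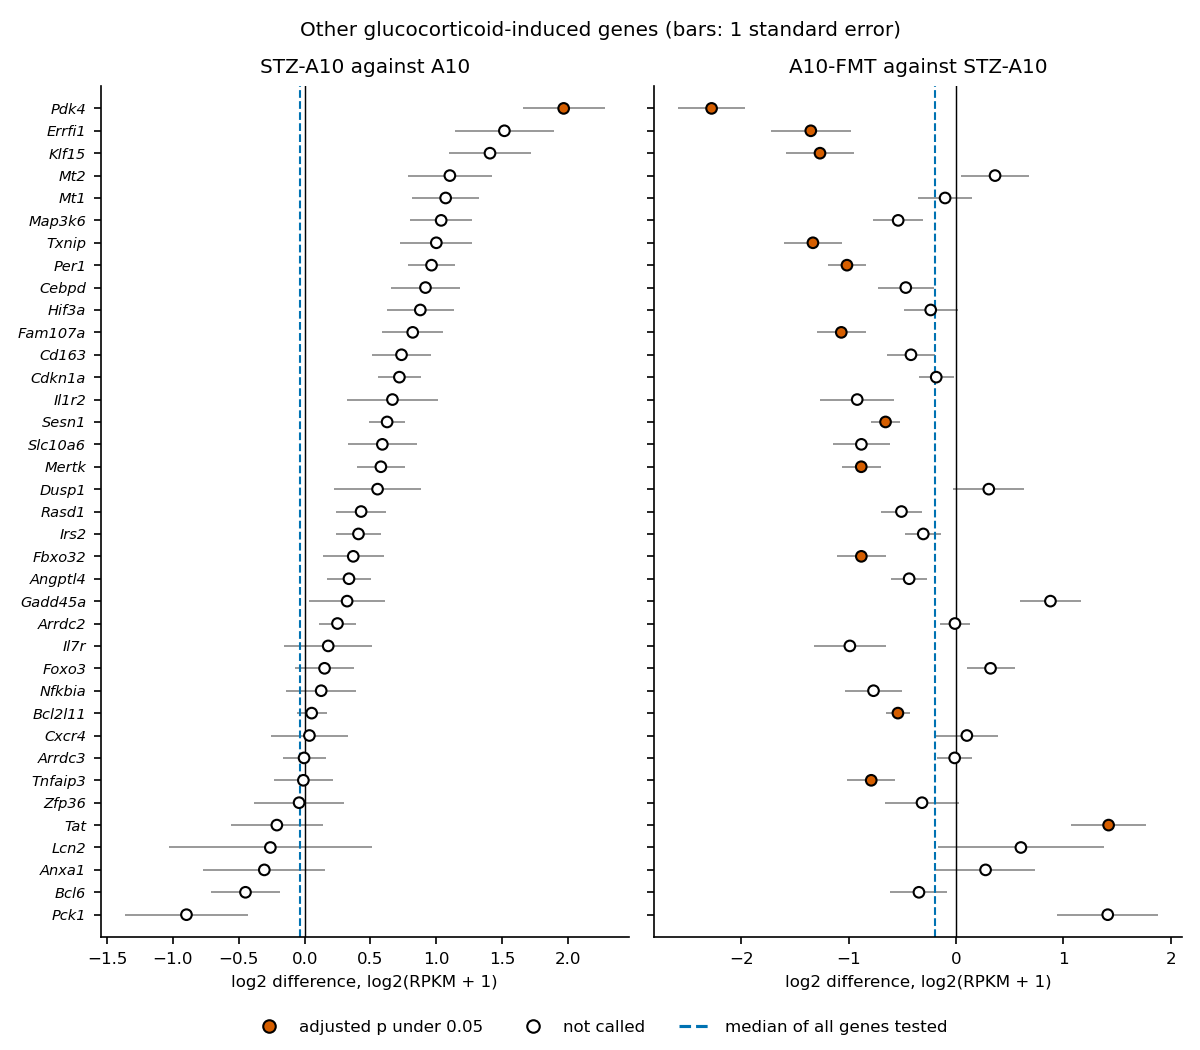
Log2 difference on the log2(RPKM + 1) scale (horizontal axes) of the 37 other glucocorticoid-induced genes tested (rows) in STZ-A10 against A10 and in A10-FMT against STZ-A10; points are limma estimates from 3 against 3 libraries, bars are 1 standard error, filled points have an adjusted p under 0.05 and the dashed line is the median of all genes. Both panels use the STZ-A10 libraries, with opposite sign, so the opposed slopes are no independent result. Pdk4 lies at 1.97 and -2.28, while Mt2 and Gadd45a, among others, had higher means in STZ-A10 than in A10 and higher still in A10-FMT.

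Partners of the receptor, such as chaperones and coactivators, were listed with the enzymes that make or destroy the active hormone, and 17 of these 19 genes could be tested. None was called in STZ-A10 against A10 or in A10-FMT against Con-FMT. In the latter 4 were called without A10-FMT replicate 2, beside 2625 of 12891 genes. In A10-FMT against STZ-A10 0 rose, beside 1.39% of all genes, and 2 fell, beside 4.57%. These were the coactivators Ncoa1 (4.69 ± 1.52 against 8.10 ± 1.04 RPKM, limma adjusted p = 0.045) and Ncoa2 (7.20 ± 1.47 against 11.01 ± 1.05 RPKM, limma adjusted p = 0.0482). These 2 calls became 0 with only the compared libraries fitted and without any library of either group but A10-FMT replicate 2. Without that library 10 were called, beside 4873 of 12891 genes. In STZ against Con, 1 of the 17 genes was lower in every library, beside 7.07% of all genes. This was Hsd11b1, which regenerates active corticosterone, at 31.0 ± 1.82 against 43.2 ± 2.49 RPKM. In STZ-A10 against A10, 7 of the 17 were lower in every library, beside 14.9% of all genes, and 2 were higher, beside 7.69%. Hsd11b1 was among the 7, at 28.4 ± 3.20 and 38.1 ± 2.22 RPKM, lower by 0.42 (limma adjusted p = 0.146). Fkbp4, the co-chaperone that opposes Fkbp5, was at 54.1 ± 7.04 RPKM in STZ-A10, 72.1 ± 6.97 in A10 and 79.7 ± 7.91 in A10-FMT. Fkbp4 thus lay opposite to Fkbp5 in these groups, but it did not pass either test (limma adjusted p = 0.433 and 0.0625). This was not particular to Fkbp4. Hsp90aa1 (means of 290, 458 and 587 RPKM in the same order), Hsp90ab1, Hspa8 and Ptges3 also had lower means in STZ-A10 than in A10 or A10-FMT. Bag1 did not, at 85.3 RPKM in STZ-A10 and 82.9 RPKM in A10. Hsd11b1 and Fkbp4 were singled out after their values were seen.

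Of 20 inflammatory genes that glucocorticoids repress, 13 could be tested and 0 were called in any of the 3 tests. Their median difference was -0.38 in STZ against Con (10 of 13 lower), 0.38 in A10 against Con (9 higher), -0.33 in STZ-A10 against A10 (12 lower) and -0.13 in A10-FMT against STZ-A10 (9 lower), the last above the median of all genes. Il12b, which encodes a subunit of interleukin-12 and was picked after its values were seen, came nearest to a call, at 0.840 ± 0.167 RPKM in STZ-A10 and 2.29 ± 0.483 in A10 (limma adjusted p = 0.0744).

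Genes of 3 other programs, each of which also acts on some glucocorticoid-induced genes, were counted as well. Of 14 clock genes tested, 14 had lower means in A10-FMT than in STZ-A10, with a median of -0.63 beside -0.20 over all genes. In the test 2 fell, beside 4.57% of all genes, Nr1d1 (3.55 ± 1.77 against 11.1 ± 3.005 RPKM, limma adjusted p = 0.0459) and Cry2 (3.30 ± 0.791 against 5.58 ± 0.319 RPKM, limma adjusted p = 0.036). In STZ-A10 against A10, 11 of the 14 were higher, with a median of 0.42, and 0 were called. The part of sampling time in these values was not tested. Of 10 hypoxia genes, a program that also induces Ddit4, 0 were called in the 3 tests and the median was 0.05 in STZ-A10 against A10 and -0.34 in A10-FMT against STZ-A10. Of 9 genes of the integrated stress response, which also induces Ddit4, 9 had higher means in STZ than in Con (median 0.40). Trib3, Asns and Atf5 were higher in every library, beside 5.77% of all genes. In A10-FMT against STZ-A10 2 rose, beside 1.39% of all genes, Atf4 by 0.45 (limma adjusted p = 0.0482) and Ddit3 by 0.42 (limma adjusted p = 0.0459). The part of hypoxia and of the integrated stress response in the level of Ddit4 was not tested.

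Markers of other cell types moved with some of these results. Red pulp macrophages, which recycle iron, had 8 of 8 markers higher in STZ than in Con, with summed levels of 807 to 837 against 562 to 749 RPKM, and 8 of 8 lower in A10-FMT (529 to 660 RPKM) than in STZ-A10 (743 to 1129 RPKM). Each of the 8, Spic and Vcam1 among them, was above 0 in every library. In STZ-A10 against A10, 8 of 8 were higher too, with a median difference of 0.27. The sums overlapped there (743 to 1129 against 664 to 764 RPKM), while Fkbp5 and Klf9 did not overlap. Within STZ, replicate 3 had 807 RPKM of macrophage markers beside 837 and 827 in the others, with Fkbp5 at 12.78 beside 23.73 and 31.9 RPKM. Within STZ-A10, the sums of replicates 1, 2 and 3 were 1129, 743 and 847 RPKM. Fkbp5 followed the same order there, at 39.8, 18.25 and 24.76 RPKM. The part of macrophage number in the levels of the members was not tested.

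Exocrine pancreas markers, a tissue that lies beside the spleen, summed to 3383 to 5594 RPKM in STZ-A10 and 20.4 to 393 in A10, with 6 of 6 markers higher and none at 0. They summed to 5.53 to 1071 RPKM in Con and 705 to 3295 in STZ. The 5 libraries with Fkbp5 above 18 RPKM had sums of 1825 to 5594 RPKM. Except for A10-FMT replicate 2, all other libraries were at 1745 RPKM or below. The highest sum of all was that of A10-FMT replicate 2, at 12123.5 RPKM, and Fkbp5 was 10.87 RPKM in this library and Klf9 3.72 RPKM, within the range of the mice without streptozotocin. Without this library, 6 of the 7 genes were called in A10-FMT against STZ-A10, beside 4873 of 12891 genes. Zbtb16, which entered the test through STZ and STZ-A10 libraries, is among the 6. The part of pancreas tissue in these values was not tested. T cell markers were lower in STZ-A10 (198 to 314 RPKM) than in A10 (360 to 399 RPKM), in 7 of 7 genes. Natural killer markers were lower there in 5 of 5, while the B cell sums overlapped. In A10-FMT against Con-FMT, markers of T cells (7 of 7), B cells (6 of 6) and natural killer cells (5 of 5) were lower, with sums apart. The part of lymphocyte number in the levels of the members was not tested. Of the adrenal cortex markers, Cyp11b1, the last enzyme of corticosterone synthesis, was at 0 in 17 of 18 libraries and at 0.03 RPKM in the other, whereas Star (4.54 to 11 RPKM), Cyp21a1 (0.99 to 9.7 RPKM) and Akr1b7 (0.54 to 2.52 RPKM) were above 0 in all 18.

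**Figure D5:**
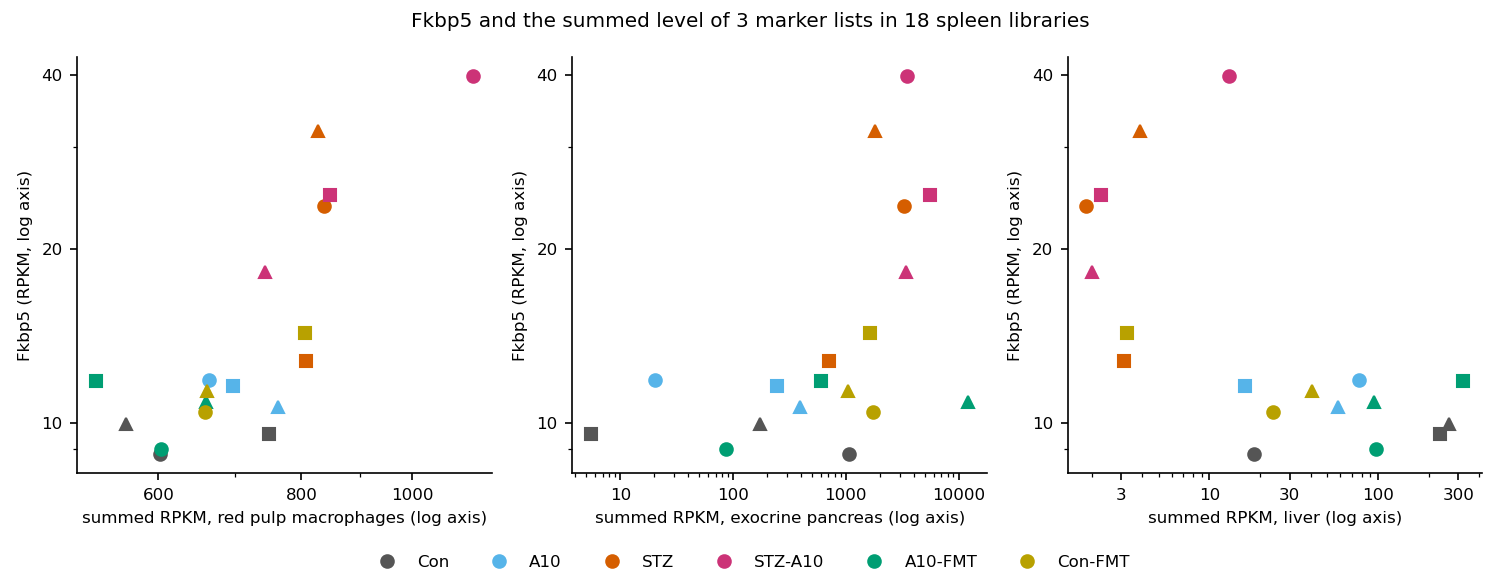
RPKM of Fkbp5 (vertical axes, logarithmic) against the summed RPKM of 8 red pulp macrophage, 6 exocrine pancreas and 7 liver markers (horizontal axes, logarithmic) in the 18 libraries, colored by group, with circles, triangles and squares for replicates 1, 2 and 3. The 5 libraries with Fkbp5 above 18 RPKM have macrophage sums from 743 to 1129 and pancreas sums from 1825 to 5594. The library with the highest pancreas sum, 12123.5, has Fkbp5 at 10.87 RPKM.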

How the data were processed

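Libraries of spleen poly(A) RNA were read on an Illumina HiSeq. Reads were mapped by the authors to reference genes with SOAPaligner, and RPKM values were deposited. The submitters' processing notes name Bowtie 0.12.2 and mm10, and annotation and strand are not given in the sources used here. Groups came from the sample labels, and 0 columns were left without a sample. Labels do not say that replicates were separate animals, so p-values measure the spread between these samples. The table gives no counts, so counting intervals were not computed. Of 19326 rows, 6 with 3 repeated names were left out. Spreadsheet dates had replaced 26 names. Genes with an RPKM of at least 1 in 3 or more libraries (12905) entered a limma model (version 3.58.1, R 4.3.3) of log2(RPKM + 1) with a variance trend and all 18 libraries. P-values were two-sided and Benjamini-Hochberg adjusted over all genes, with a threshold of 0.05. The code was tested on simulated data. Apart means that the ranges of 3 against 3 libraries did not touch, or of fewer where a library was left out. For the latter no share of all genes was computed. Members and lists were chosen with earlier results of these data known. From the other induced genes and receptor partners, those called were named, and the 3 induced genes with the largest difference among those apart with a mean of 5 RPKM in the higher group. For each member, the 3 genes with the highest Pearson r were taken. Alternatives covered scaling, pseudocount, filter, variance model, weights, block and left-out libraries.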

Additional observations from a re-analysis of the deposited data

How the results depend on the processing

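The member counts were recomputed under other processing. In STZ-A10 against A10, where 0 members passed, 1 passed after quantile normalization, 1 after median centring and 4 with array weights, whose estimation did not fully converge. Of all 12905 genes, 27, 29 and 3638 passed in these fits, in that order. In A10-FMT against Con-FMT, 5 passed with array weights instead of 0, beside 8512 of 12905 genes. In A10-FMT against STZ-A10, 0 passed with only the compared groups fitted instead of 4 (Zbtb16 among the 4, and below the filter in that fit), and 0 to 6 with a library left out. With a library left out, 0 to 4873 of all genes passed. Filters that dropped Zbtb16 (an RPKM of 1 in every library, or only the compared libraries) left 1 member apart instead of 2 in STZ against Con and 1 instead of 2 in Con-FMT against STZ. Leaving out a library gave 1 to 4 members apart in STZ against Con, 1 to 5 in Con-FMT against STZ, 1 to 3 in A10 against Con and 0 to 1 in STZ-A10 against STZ, the 1 in the first 2 being due to the filter, which drops Zbtb16 without STZ replicate 2. Signs turned in A10-FMT against Con-FMT for Klf9 (0.12 after quantile normalization, 0.059 after median centring), Fkbp5 (0.0068 after median centring) and Zbtb16 (0.13 after median centring, and 0.017 without Con-FMT replicate 1 in a range of -0.099 to 0.017 with libraries left out), and the cause was not tested. Among differences with no test, signs turned under 1 or more settings in STZ-A10 against STZ for Fkbp5, Klf9, Zbtb16, Tsc22d3 (-0.55, -0.32, -0.36 and -0.055 with array weights) and Nr3c1 (0.069), and in A10 against Con for Tsc22d3, Sgk1, Klf9 and Nr3c1, in Con-FMT against STZ for Ddit4 and Nr3c1, and in STZ against Con for Sgk1.

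Over all genes, the 7 calls in STZ-A10 against A10 became 27 (quantile), 29 (median centring), 3 (pseudocount of 0.1), 4 (no filter), 11 (every-library filter) and 3638 (array weights). The 770 calls in A10-FMT against STZ-A10 became 306 (quantile), 344 (no filter) and 8819 (array weights), and the 0 in A10-FMT against Con-FMT became 1 (pseudocount) and 8512 (array weights). Deviations of same-numbered libraries had r from -0.39 to 0.57. Libraries with different numbers were not compared in this way, so whether replicate numbers pair the samples is not known. With the replicate block, member calls were 0, 0 and 4 as before, and calls over all genes 4, 0 and 761. Leaving out a library gave 1 to 6, 0 to 2625 and 0 to 4873, the highest of the last 2 without A10-FMT replicate 2, and fitting only the compared groups gave 66, 1 and 3. The alternatives for the other induced genes and receptor partners, and the counts that set Zbtb16 apart, were chosen after seeing the data. Of the 37 other induced genes, 12 were called in A10-FMT against STZ-A10, and the count under another setting was 5 (quantile), 7 (median centring), 7 (no filter) and 26 (array weights), and the call of Pdk4 in STZ-A10 against A10 was lost with a pseudocount of 0.1 (adjusted p = 0.0552), no filter (0.0594) and the replicate block (0.0659). Depth limits Zbtb16 most.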
